A study of Mus musculus with 6 samples.

Results

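The 64 genes described here build, link and organise the extracellular matrix of the bowel wall. They were taken by name from the 54532 genes of the deposited files: 44 collagen chain genes, and 20 genes for elastin, the lysyl oxidases, the fibrillins and microfibril proteins, the fibulins, fibronectin, decorin, lumican, biglycan, periostin and SPARC. The choice went by gene name but was made with earlier results of these data known. Where a name had several rows, the rule kept the row with most counts. RNA was measured in intestine of newborn C57BL/6 mice, an inbred strain, in 2 groups of 3 libraries. The NECA group had received NECA (N-ethylcarboxamidoadenosine), an adenosine analogue that activates several adenosine receptor subtypes, for 5 days. The DMSO group had received DMSO, the solvent used as vehicle. No genetic change is given for either group, and the labels state neither the bowel segment, nor the route of treatment, nor whether separate animals lie behind the 3 libraries of each group, so p-values measure only the spread between these libraries.

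Collagens are trimers of chains wound into a triple helix. Fibrillar collagens give the submucosa its tensile strength, type IV collagens form the sheet under epithelium, vessels and muscle, and type VI collagens form beaded filaments close to cells. Elastic fibres have a core of crosslinked elastin laid on a scaffold of fibrillin microfibrils. Lysyl oxidases start the crosslinks of both systems by oxidising lysine side chains. In the intestine most of these transcripts come from fibroblasts, smooth muscle and vessel cells, while type IV chains are shared with endothelium. In whole tissue, fewer cells of a type and less RNA per cell cannot be told apart.

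The triple helix and the crosslink can both be read from single exons of the genes on which the results turn. The glycine codons that repeat along the helix are in capitals in the 3 exons of 54 bases below, 1 each from Col1a1 (chr11:94939904-94939957, plus strand, exon 8), Col1a2 (chr6:4515481-4515534, plus strand, exon 8) and Col3a1 (chr1:45325360-45325413, plus strand, exon 6), and each holds 6 of them. In the exon of Eln (chr5:134718989-134719048, minus strand, exon 18, 60 bases) the capitals mark 3 lysine codons in a stretch rich in alanine codons, lysine being the residue that lysyl oxidases modify. Sequences are coding strand, 5′ to 3′, from GRCm38 with the GENCODE M21 exons.
Col1a1: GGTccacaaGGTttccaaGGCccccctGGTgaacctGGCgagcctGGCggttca
Col1a2: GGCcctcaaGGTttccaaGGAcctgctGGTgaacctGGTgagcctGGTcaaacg
Col3a1: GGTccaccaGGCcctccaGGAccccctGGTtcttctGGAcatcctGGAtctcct
Eln: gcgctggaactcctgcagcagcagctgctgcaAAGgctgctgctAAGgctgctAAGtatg
Of the 627 internal coding exons of the 11 fibrillar collagen genes, 83.9% had a length that is a multiple of 9 bases, the length of 1 glycine-led repeat unit, and 48.6% were exactly 54 bases. Among the 158748 internal coding exons of all protein-coding genes these shares were 14.3% and 0.734%. The lysyl oxidase genes, which code for enzymes with no helix, had 0 such exons of 44, and the small leucine-rich proteoglycans 0 of 10. Multiples of 9 were not confined to collagens. They made up 38.9% in the elastic fibre and microfibril genes and 23.0% in the adhesive and matricellular genes, beside 37.7% in the multiplexin collagens.

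The libraries held 15531996 to 18065078 counts. NECA replicate 2 and DMSO replicate 2 stood apart: their median Spearman correlations with the other libraries across genes were 0.948 and 0.971, against 0.983 to 0.986 for the other 4. Genes typical of the ileum summed to 175, 4377 and 578 FPKM in NECA replicates 1 to 3 and to 130.4, 141 and 494 FPKM in DMSO replicates 1 to 3. Genes of a list named jejunal, not all of them particular to the jejunum, summed to 9368, 692 and 9759 FPKM against 8714, 9719 and 7636 FPKM. Fabp1 and Fabp2 made up most of each jejunal sum. In the edgeR fit, all 8 genes of the jejunal list had log2 fold changes below 0 (median -0.66) and all 7 ileal genes above 0 (1.92). Such a sign can rest on 1 library. Fabp1 had 4955, 41.3 and 4830 FPKM in NECA replicates 1 to 3 and 4271, 4287 and 3757 FPKM in DMSO replicates 1 to 3. Only NECA replicate 2 lay below the DMSO libraries for Fabp1. Ada, of the jejunal list, had 8.72, 5.37 and 12.3 FPKM in NECA and 32.7, 28.7 and 21.5 FPKM in DMSO. Pdx1, of the same list, had 0.875, 0.0914 and 0.292 FPKM in NECA and 7.22, 4.95 and 1.06 FPKM in DMSO. The other genes of both lists overlapped between groups, and no gene of either list passed adjustment. Smooth muscle markers summed to 2463 FPKM in DMSO replicate 2 and to between 1013 and 1305 FPKM in the other 5 libraries. Each group held 1 library with almost no Xist, the RNA of the silenced X chromosome: 11 counts in NECA replicate 1 and 14 in DMSO replicate 2, against at least 2956 elsewhere. FPKM (fragments normalised for gene length and library depth) are the authors' values and are used for levels, including those compared between genes.

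Of the 64 matrix genes, 61 passed the filter on low counts and were tested, and none passed edgeR's quasi-likelihood test after Benjamini-Hochberg adjustment over the 15847 genes tested, where 0% of all genes were called. The smallest adjusted p was 0.738 among the matrix genes and 0.589 among all genes. At an unadjusted p under 0.05, edgeR gave 4 of 61 matrix genes (6.56%), beside 5.48% of all genes. All 4 were lower in NECA (Eln, Lox, Mfap5 and Fbln2), beside 3.03% of all genes in that direction. DESeq2 and limma also called 0 matrix genes after adjustment. At an unadjusted p under 0.05, DESeq2 gave 3 of 64, beside 3.96% of all genes, and limma 2 of 45, beside 5.55%. The share of 6.56% is near that over all genes, and the values below describe these 6 libraries.

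The fitted fold changes lay differently in the 2 kinds of matrix gene. The 41 tested collagens had a median log2 fold change (NECA over DMSO) of 0.01, with 20 below 0 and 21 above. The 20 other genes had a median of -0.30, with 16 below 0. Over all genes the median was -0.01 and 51.0% were below 0. The difference between collagens and the other matrix genes was not tested. The median of the collagens turned to -0.04 without DMSO replicate 2, -0.03 without both libraries numbered 2 and -0.003 without NECA replicate 3, while that of the other 20 stayed between -0.38 and -0.15 under the 15 other settings tried, nearest to 0 without DMSO replicate 1.

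**Figure D1:**
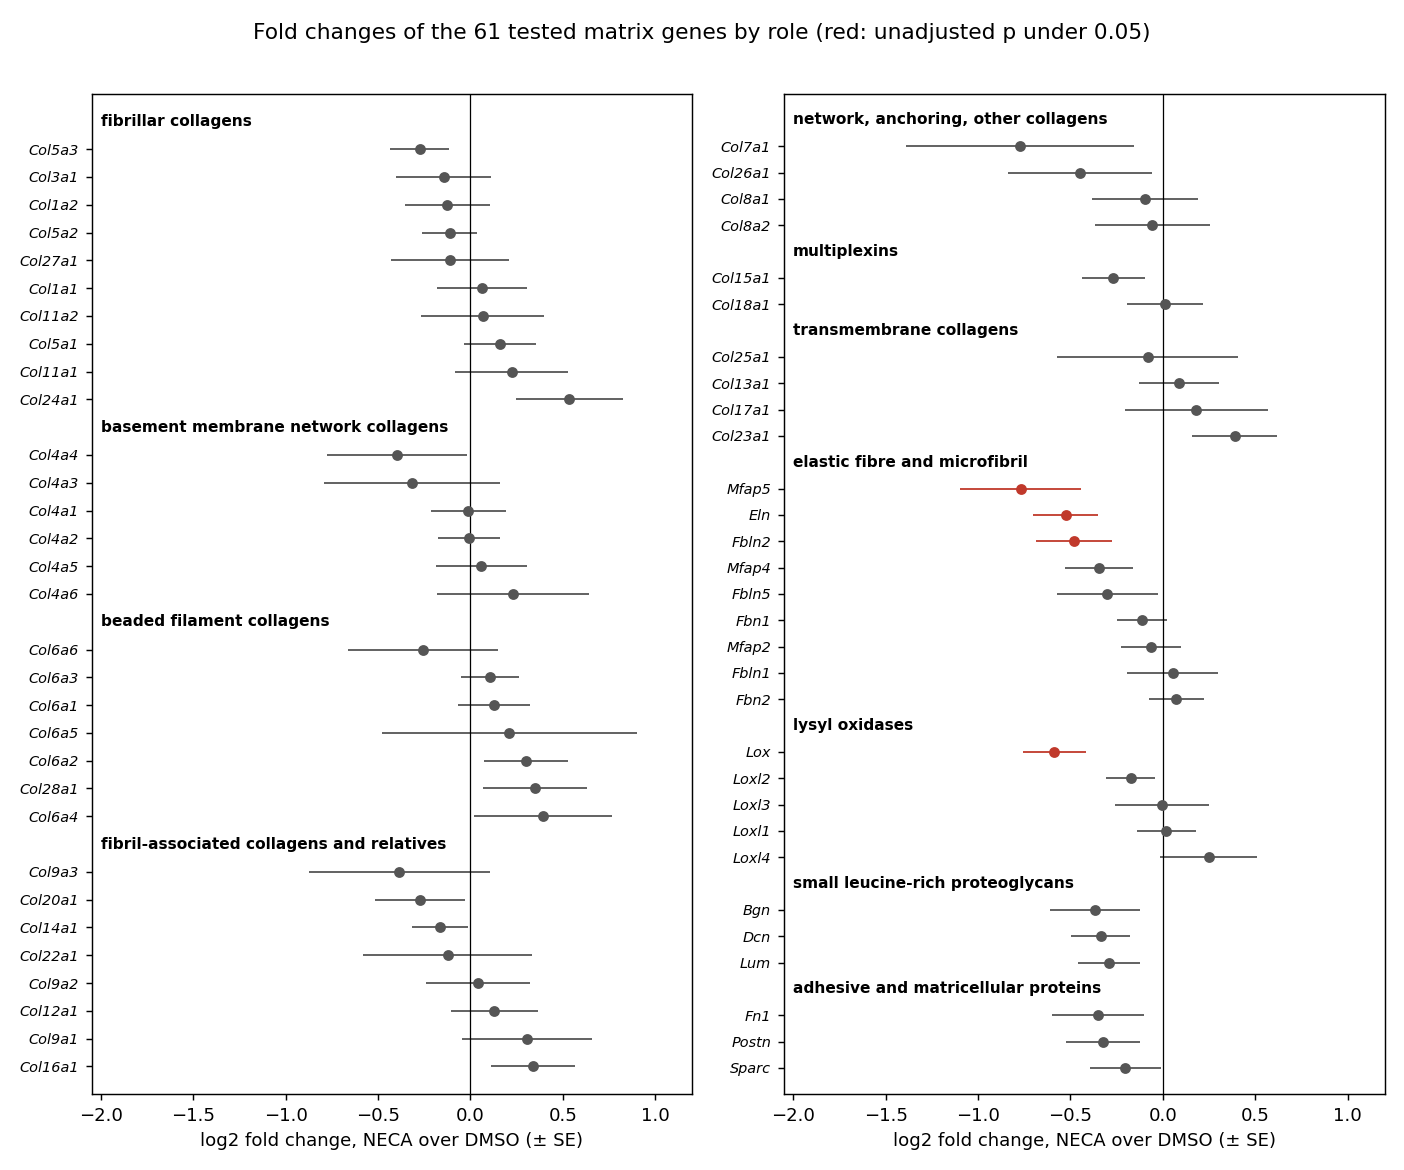
Log2 fold change (NECA over DMSO) with its standard error (SE) from the edgeR fit, for the 61 tested matrix genes grouped by role. Points left of 0 are lower in NECA, and red marks the 4 genes with an unadjusted p under 0.05, which are Mfap5, Eln, Fbln2 and Lox.

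In 7 of the 61 genes the 3 NECA libraries all lay on 1 side of the 3 DMSO libraries in TMM-normalised CPM (counts scaled between libraries), which held for 13.7% of all genes. Eln, Lox, Fbln2, Dcn, Col5a3 and Loxl2 were the 6 that lay lower in NECA, beside 7.16% of all genes. Col24a1, a minor fibrillar collagen of low level, was the 1 that lay higher, beside 6.49% of all genes, at 0.692, 0.828 and 0.721 FPKM in NECA replicates 1 to 3 against 0.522, 0.344 and 0.667 FPKM in DMSO replicates 1 to 3. It was named after its values were seen.

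Eln encodes tropoelastin, the soluble precursor of elastin (chr5:134702593-134747323, minus strand). It had 43.6, 37.2 and 47.7 FPKM in NECA replicates 1 to 3, against 60.2, 63.6 and 58.9 FPKM in DMSO replicates 1 to 3. All 3 NECA libraries were below all 3 DMSO libraries, and the DMSO libraries lay close together. The means were 42.8 ± 5.29 FPKM in NECA and 60.9 ± 2.45 FPKM in DMSO (SD, n = 3 each). The log2 fold change was -0.52 (SE 0.18, edgeR unadjusted p = 0.0187, adjusted p = 0.738). Over the 15 other settings it ran from -0.61 to -0.40, with unadjusted edgeR, DESeq2 or limma p from 0.00453 to 0.0534. A predicted gene on the opposite strand shares exonic bases with Eln and had 7 counts in all 6 libraries, against 42641 for Eln.

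Fbln2 and Fbln1 encode fibulins, glycoproteins that bind elastin, fibronectin and basement membrane components, and Fbln5 encodes the fibulin that guides elastin onto microfibrils. Fbln2 had 6.61, 4.04 and 6.28 FPKM in NECA replicates 1 to 3, against 7.18, 8.71 and 7.41 FPKM in DMSO replicates 1 to 3. The groups did not overlap, though NECA replicate 1 lay only a little below DMSO replicate 1 and NECA replicate 2 was the lowest by far. The log2 fold change was -0.48 (SE 0.21, edgeR unadjusted p = 0.0498). It was -0.29 without NECA replicate 2 and -0.19 without both libraries numbered 2, and its unadjusted p ran from 0.0331 to 0.152 over the 15 other settings, above 0.05 with DESeq2 size factors, the replicate block, DESeq2, limma, and any 1 library left out other than NECA replicate 1. Fbln1 was the second most abundant gene of the elastic system, with 61.1, 31.0 and 43.2 FPKM in NECA against 41.7, 39.8 and 47.2 FPKM in DMSO. Its highest and lowest libraries were both NECA libraries, so its fold change of 0.05 (log2, SE 0.25) lay well within the spread. Fbln5 had a log2 fold change of -0.30 (SE 0.27), with overlapping groups of 3.53 to 7.94 FPKM in NECA and 6.35 to 8.03 FPKM in DMSO.

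The microfibril genes were less uniform. Mfap5, a microfibril-associated glycoprotein, had 2.32, 1.36 and 2.14 FPKM in NECA replicates 1 to 3, against 4.39, 2.03 and 3.37 FPKM in DMSO replicates 1 to 3. DMSO replicate 2 lay within the NECA range, so the groups overlapped although the log2 fold change was -0.77 (SE 0.33, edgeR unadjusted p = 0.0478). Over the 15 other settings it ran from -1.01 without DMSO replicate 2 to -0.50 without DMSO replicate 1, with unadjusted p from 0.00346 to 0.191. Mfap4, a fibrinogen-related microfibril protein that binds elastin, had 27.7, 25.0 and 32.3 FPKM in NECA and 43.5, 28.7 and 34.8 FPKM in DMSO. Here too DMSO replicate 2 fell inside the NECA range (log2 fold change -0.35, SE 0.18). The scaffold genes stayed nearer to 0: Fbn1, the main fibrillin, had a log2 fold change of -0.11 (SE 0.13), Fbn2, the fibrillin typical of development, 0.07 (SE 0.15), and Mfap2, a small microfibril glycoprotein, -0.06 (SE 0.16). As a group, the 9 elastic fibre genes had a median of -0.30 with 7 below 0, and 6 to 8 below 0 under the other settings. Their median was -0.16 without NECA replicate 2, and -0.19 both without DMSO replicate 1 and without both libraries numbered 2. Mfap4 shares exonic bases with Mapk7 on the opposite strand, and the counting strand is not given, so their reads cannot be told apart where they overlap.

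**Figure D2:**
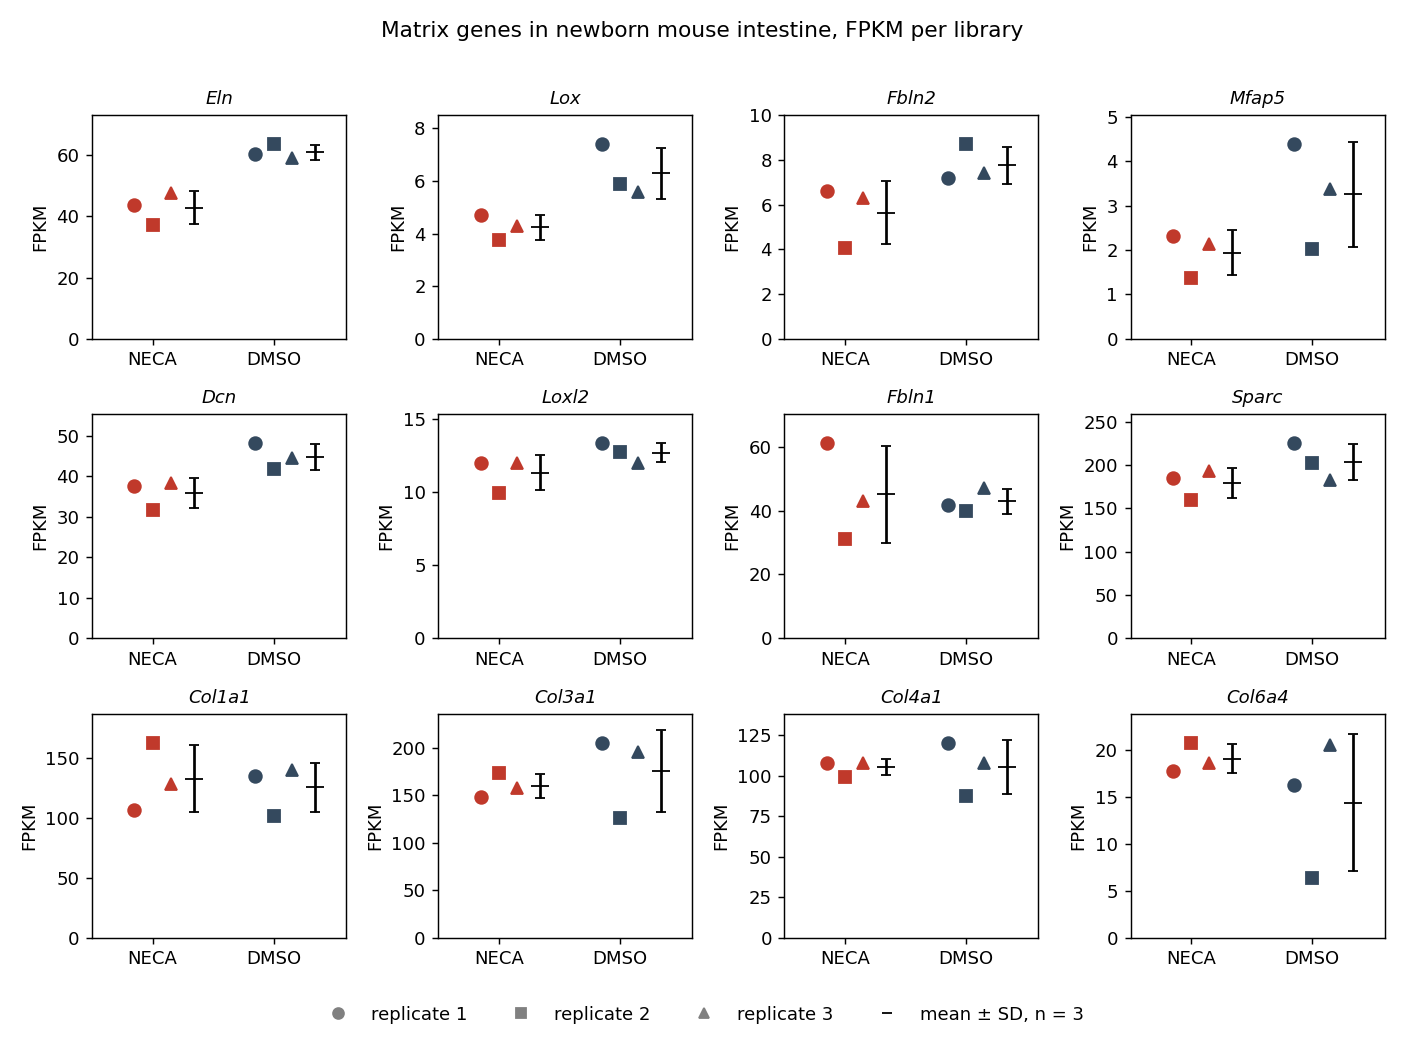
FPKM in each library for 12 matrix genes, NECA left and DMSO right in each panel, with the mean and SD of the 3 libraries beside the points. Eln, Lox, Fbln2 and Dcn show NECA libraries below all DMSO libraries, Loxl2 nearly so, and the other 7 panels overlap, with DMSO replicate 2 the lowest library for Col1a1, Col3a1, Col4a1 and Col6a4.

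Lox, the founding lysyl oxidase, had the smallest p of all 61 genes. It had 4.70, 3.75 and 4.27 FPKM in NECA replicates 1 to 3, against 7.40, 5.90 and 5.57 FPKM in DMSO replicates 1 to 3. The groups did not overlap, and the highest NECA library lay below the lowest DMSO library. The means were 4.24 ± 0.473 FPKM in NECA and 6.29 ± 0.978 FPKM in DMSO (SD, n = 3 each), and the log2 fold change was -0.59 (SE 0.17, edgeR unadjusted p = 0.00977, adjusted p = 0.738). Over the 15 other settings it ran from -0.67 to -0.46, with unadjusted p from 0.00907 to 0.05.

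The other lysyl oxidases did not share this pattern. Loxl2, an oxidase that acts on type IV collagen among others, had 12.0, 9.94 and 12.0 FPKM in NECA replicates 1 to 3, against 13.3, 12.7 and 12.0 FPKM in DMSO replicates 1 to 3. Its groups were apart in TMM-normalised CPM but met in FPKM, where DMSO replicate 3 was about level with NECA replicates 1 and 3 (log2 fold change -0.17, SE 0.13). Loxl1, which is linked to elastic fibre upkeep, had 11.1, 13.7 and 12.3 FPKM in NECA against 13.8, 11.7 and 10.7 FPKM in DMSO, fully overlapping. Loxl3 and Loxl4, both below 2 FPKM in every library, had log2 fold changes of -0.01 (SE 0.25) and 0.25 (SE 0.26). Loxl3 overlaps Htra2 on the opposite strand. The median of the 5 oxidases was -0.01.

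The small leucine-rich proteoglycans bind collagen fibrils and set their spacing and width. Dcn, encoding decorin, had 37.7, 31.6 and 38.3 FPKM in NECA replicates 1 to 3, against 48.1, 41.7 and 44.5 FPKM in DMSO replicates 1 to 3. The groups did not overlap (log2 fold change -0.34, SE 0.16, edgeR unadjusted p = 0.0696). Lum, encoding lumican and lying 47.0 kb from Dcn on chromosome 10, had 20.3, 23.9 and 25.8 FPKM in NECA and 30.0, 23.2 and 31.6 FPKM in DMSO. Bgn, encoding biglycan, had 17.5, 14.8 and 18.8 FPKM in NECA and 27.7, 14.3 and 23.2 FPKM in DMSO. Both overlapped through DMSO replicate 2, which was below the NECA median for each, and their log2 fold changes were -0.29 (SE 0.17) and -0.36 (SE 0.24).

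The 3 adhesive and matricellular genes also had fold changes below 0 without separating the groups. Sparc encodes a calcium-binding collagen chaperone outside the cell and was the most abundant of the 64 genes, with 185, 159.6 and 193 FPKM in NECA replicates 1 to 3 against 225, 203 and 183 FPKM in DMSO replicates 1 to 3. DMSO replicate 3 lay below 2 of the NECA libraries. Postn, a matricellular protein of growing connective tissue, had 22.7, 22.2 and 23.6 FPKM in NECA and 33.6, 21.1 and 30.3 FPKM in DMSO. Fn1, encoding fibronectin, had 12.4, 11.0 and 13.9 FPKM in NECA and 20.1, 10.3 and 16.8 FPKM in DMSO. For both, the NECA libraries lay close together while DMSO replicate 2 was below all of them and the other DMSO libraries were above (log2 fold changes -0.32, SE 0.20, and -0.35, SE 0.25).

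Fibrillar collagens made up the largest summed level, 345, 452 and 385 FPKM in NECA replicates 1 to 3 and 456, 314 and 448 FPKM in DMSO replicates 1 to 3. Col3a1, the chain of type III collagen in distensible tissue, had 148, 173 and 158 FPKM in NECA and 205, 126 and 195 FPKM in DMSO. The NECA libraries fell between DMSO replicate 2 and the other DMSO libraries (log2 fold change -0.15, SE 0.26). Col1a1 and Col1a2 encode the chains of type I collagen, the main load-bearing fibril. Col1a1 had 107, 163 and 129 FPKM in NECA and 135, 102 and 140.3 FPKM in DMSO, and Col1a2 had 49.2, 66.4 and 55.9 FPKM in NECA and 69.0, 48.5 and 67.8 FPKM in DMSO. NECA replicate 2 was the highest NECA library for all 3 chains and DMSO replicate 2 the lowest DMSO library.

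Among the minor fibrillar chains, Col5a3, a chain of type V collagen, had 1.89, 2.0 and 2.34 FPKM in NECA replicates 1 to 3 against 2.60, 2.41 and 2.47 FPKM in DMSO replicates 1 to 3. The groups did not overlap, by a narrow margin (log2 fold change -0.28, SE 0.16, edgeR unadjusted p = 0.128). Col5a1 and Col5a2, chains of the type V collagen that nucleates type I fibrils, had log2 fold changes of 0.16 (SE 0.19) and -0.11 (SE 0.15). Col11a1, Col11a2 and Col27a1, best known from cartilage, overlapped between groups, and Col2a1, the main cartilage collagen, did not pass the filter, with 9 counts in NECA replicate 2, 1 count in DMSO replicate 3 and 0 in the other libraries. The 10 tested fibrillar genes had a median log2 fold change of -0.02.

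Collagen chains can be set against each other within a library, which cancels any factor common to both chains. The pairs were chains of 1 collagen type, except Col3a1 and Col1a1, which belong to types III and I. Of 6 FPKM ratios, 3 did not overlap between groups. The share of other gene pairs whose ratios lie apart was not worked out, so this count has no background beside it. With 3 libraries against 3 the smallest two-sided exact permutation p is 0.1, which these 3 ratios had, and 0.2 after adjustment over the 6 ratios, so none could pass 0.05. The ratio of Col1a1 to Col1a2 was 2.17, 2.45 and 2.30 in NECA replicates 1 to 3 and 1.96, 2.10 and 2.07 in DMSO replicates 1 to 3. The ratio of Col6a1 to Col6a2 was 2.09, 1.98 and 2.06 in NECA and 2.32, 2.53 and 2.15 in DMSO. The ratio of Col5a2 to Col5a1 was 0.560, 0.555 and 0.570 in NECA and 0.669, 0.823 and 0.586 in DMSO. The first lay higher in NECA and the other two lower, and the NECA libraries were close to each other in the last. Col4a1 to Col4a2, Col6a3 to Col6a1 and Col3a1 to Col1a1 overlapped, with exact permutation p of 1, 0.9 and 0.3.

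**Figure D3:**
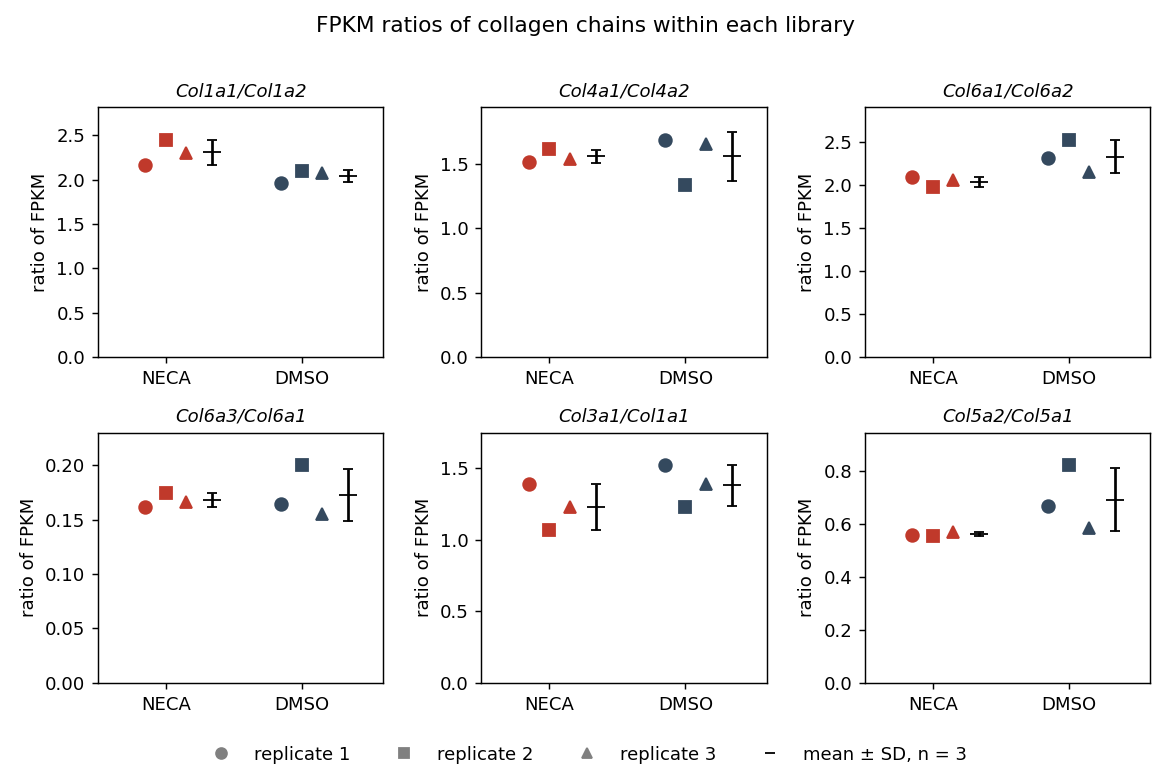
Ratio of the FPKM of 2 collagen chains within each library, NECA left and DMSO right, with the mean and SD of 3 libraries. Col1a1 to Col1a2 lies higher in NECA, Col6a1 to Col6a2 and Col5a2 to Col5a1 lie lower in NECA, and the other 3 ratios overlap.

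Type IV collagen showed nearly equal group means. Col4a1 and Col4a2, the chains found in most basement membranes, had 108, 99.4 and 108 FPKM, and 70.9, 61.2 and 70.1 FPKM, in NECA replicates 1 to 3. In DMSO replicates 1 to 3 they had 120.2, 87.2 and 108 FPKM, and 71.2, 64.9 and 64.9 FPKM. The groups overlapped in both, and the log2 fold changes were -0.01 (SE 0.20) and -0.01 (SE 0.17). Both changed sign under other settings without leaving the range from -0.12 to 0.08. Col4a5, a chain of the X-linked pair, had 3.96, 4.84 and 4.59 FPKM in NECA and 5.12, 2.72 and 4.90 FPKM in DMSO, with DMSO replicate 2 lowest. Its partner Col4a6 stayed at or below 1.14 FPKM, and Col4a3 and Col4a4, the chains of kidney and lung basement membrane, stayed below 0.26 FPKM, all with overlapping groups.

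The members of each of these pairs are neighbours in the genome. Col4a1 and Col4a2 point away from each other on chromosome 8 and overlap at their starts, with start sites 21 bases apart. They share exonic bases on opposite strands, and the counting strand is not given, so their reads cannot be told apart where they overlap. Col4a3 and Col4a4 are 72 bases apart on chromosome 1, and Col4a5 and Col4a6 are 1.31 kb apart on the X chromosome. The RefSeq windows of GRCm38.p6 from 250 bases before to 50 after the start of Col4a1 (chr8:11312777-11313076, minus strand) and Col4a2 (chr8:11312555-11312854, plus strand) share 78 bases. They are shown, each 5′ to 3′ on its gene's strand, because both genes start in this 1 stretch. Capitals mark matches to the CCAAT box (CCAAT) and the GC box (GGGCGG) on either strand.
Col4a1: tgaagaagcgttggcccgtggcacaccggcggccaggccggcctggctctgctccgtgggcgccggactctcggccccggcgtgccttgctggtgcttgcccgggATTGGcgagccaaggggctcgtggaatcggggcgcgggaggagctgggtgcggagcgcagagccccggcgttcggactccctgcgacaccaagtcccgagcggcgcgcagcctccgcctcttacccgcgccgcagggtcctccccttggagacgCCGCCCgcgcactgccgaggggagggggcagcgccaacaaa
Col4a2: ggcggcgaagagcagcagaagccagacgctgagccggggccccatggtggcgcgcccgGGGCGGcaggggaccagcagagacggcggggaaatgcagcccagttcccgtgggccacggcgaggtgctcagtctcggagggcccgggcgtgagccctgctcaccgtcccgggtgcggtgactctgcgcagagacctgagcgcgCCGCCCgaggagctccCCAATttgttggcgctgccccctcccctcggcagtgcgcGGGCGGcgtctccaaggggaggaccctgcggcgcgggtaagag
Neither window holds a TATA box (TATAAA). Windows were found for 44 of the 64 matrix genes, 51 windows in all. The GC box was in 58.8% of them, against 35.7% of all 32851 windows, and their median GC content was 60.0%, against 52.7%. The CCAAT box was in 31.4% against 37.4% and the TATA box in 11.8% against 13.6%. The full cyclic AMP response element (TGACGTCA), searched because adenosine receptors act through cyclic AMP, was in 1.96% against 1.79%, in the window of Col24a1. Its shorter form (TGACG), which the full element contains, was in 13.7% against 20.8%. Both strands were searched, and a match is a stretch of letters, not a bound site.

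Beaded filament collagens had 6 of 7 fold changes above 0, and DMSO replicate 2 was the lowest library for all 7 genes. Col6a1, a core chain, had 73.8, 87.1 and 81.8 FPKM in NECA replicates 1 to 3 against 80.5, 58.0 and 81.8 FPKM in DMSO replicates 1 to 3. Col6a2, its neighbour on chromosome 10, had 35.3, 44.0 and 39.8 FPKM in NECA and 34.8, 22.9 and 38.1 FPKM in DMSO. Col6a4, an alternative chain that can replace the Col6a3 product, had 17.8, 20.8 and 18.7 FPKM in NECA and 16.3, 6.39 and 20.6 FPKM in DMSO. The groups overlapped in all 3, with NECA replicate 2 the highest library of each, and the log2 fold changes were 0.13 (SE 0.20), 0.30 (SE 0.23) and 0.39 (SE 0.37). Without both libraries numbered 2, Col6a1 was at -0.07 and Col6a4 at -0.03. Col6a5, which lies 28.8 kb from Col6a4, was also lowest in that library, at 4.13, 2.82 and 5.23 FPKM in NECA and 4.58, 0.494 and 5.37 FPKM in DMSO, and was named after its values were seen. Col6a3, Col6a6 and Col28a1, a related chain, overlapped between groups as well. The 7 beaded filament genes had a median of 0.21 with 6 above 0, of 0.04 to 0.45 with 1 library left out, lowest without DMSO replicate 2 and highest without DMSO replicate 3, and of -0.03 with 2 above 0 without both libraries numbered 2.

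Fibril-associated collagens sit on the surface of fibrils. Col14a1 had 14.5, 11.0 and 13.0 FPKM in NECA replicates 1 to 3 against 14.3, 15.3 and 13.1 FPKM in DMSO replicates 1 to 3. Col16a1 had 8.55, 14.1 and 9.76 FPKM in NECA and 9.76, 6.77 and 8.90 FPKM in DMSO. Col12a1 had 4.06, 3.71 and 3.55 FPKM in NECA and 4.53, 2.29 and 3.42 FPKM in DMSO. All 3 overlapped, and the 2 libraries numbered 2 set both ends of the range for Col16a1. Col9a1, Col9a2, Col9a3, Col20a1 and Col22a1 were at 2.41 FPKM or less in every library with overlapping groups, and Col19a1 did not pass the filter, with at most 2 counts in a library.

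The multiplexins lie in basement membrane zones and carry endostatin-like ends. Col18a1 had 26.7, 25.6 and 25.9 FPKM in NECA replicates 1 to 3 against 28.0, 18.2 and 30.4 FPKM in DMSO replicates 1 to 3, so all NECA libraries fell inside the DMSO range. Col15a1 had 14.5, 10.9 and 14.4 FPKM in NECA and 18.1, 13.6 and 15.8 FPKM in DMSO (log2 fold change -0.27, SE 0.17), overlapping through DMSO replicate 2. Among the transmembrane collagens, Col23a1 had 4.27, 5.44 and 4.0 FPKM in NECA and 4.10, 2.46 and 3.81 FPKM in DMSO (log2 fold change 0.39, SE 0.23). Col13a1 had 3.20, 2.14 and 3.39 FPKM in NECA and 2.40, 2.70 and 3.0 FPKM in DMSO. Both overlapped, as did Col17a1, the hemidesmosome collagen, and Col25a1, both at 0.215 FPKM or less.

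The remaining collagens were low. Col8a1 and Col8a2, which form hexagonal nets around vessels, had 1.94, 1.19 and 1.31 FPKM, and 0.783, 0.945 and 0.918 FPKM, in NECA replicates 1 to 3. In DMSO replicates 1 to 3 they had 2.13, 1.17 and 1.38 FPKM, and 0.751, 1.29 and 0.690 FPKM. Col26a1 had 0.390, 0.434 and 0.490 FPKM in NECA and 0.419, 0.962 and 0.394 FPKM in DMSO. DMSO replicate 2 was the highest library for Col8a2 and Col26a1 and the lowest for Col8a1, and all groups overlapped. Col7a1, the anchoring fibril of the epithelial base, ran from 0.115 to 0.696 FPKM in NECA and from 0.446 to 1.02 FPKM in DMSO (log2 fold change -0.77, SE 0.62). Col10a1, known from growth plate cartilage, had at most 3 counts in a library and did not pass the filter.

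As a share of all counts, the 64 genes held 0.824%, 1.02% and 0.876% in NECA replicates 1 to 3, against 1.05%, 0.762% and 0.973% in DMSO replicates 1 to 3. Both the highest and the lowest share were DMSO libraries, so no difference between groups stood out from the spread. The exact binomial 95% intervals are narrow, for example 1.012% to 1.022% in NECA replicate 2 and 0.7573% to 0.766% in DMSO replicate 2. They cover counting error only, not the spread between libraries. PCR copies were not marked by molecular identifiers, so the intervals can be too narrow even for counting error. The 5 most abundant genes (Sparc, Col3a1, Col1a1, Col4a1 and Col6a1) made up 48.9% to 52.2% of the summed FPKM of the 64 genes in each library.

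The DMSO libraries set the ends of the range more often than the NECA libraries. DMSO replicate 1 was the highest library for 27 of the 61 tested genes (44.3%), beside 13.2% of all genes tested. DMSO replicate 2 was the lowest for 25 (41.0%), beside 26.4% of all genes. NECA replicate 2 was the lowest for 17 (27.9%), beside 28.2%, and the highest for 11 (18.0%), beside 29.7%. Fibroblast markers were mixed in DMSO replicate 2, which was the lowest library for 7 of the 14 and the highest for 3. They summed to 353, 446 and 412 FPKM in NECA replicates 1 to 3 and to 402, 262 and 444 FPKM in DMSO replicates 1 to 3. The low sum in DMSO replicate 2 came from Adamdec1, the most abundant of them, at 177, 281 and 223 FPKM in NECA and 204, 50 and 282 FPKM in DMSO. Without Adamdec1 that library had the highest sum, 212 FPKM, of which 111 FPKM was C3. C3 had 57.9, 53.3 and 63.3 FPKM in NECA replicates 1 to 3 and 70.3 and 32.1 FPKM in DMSO replicates 1 and 3. So the sum in DMSO replicate 2 rested on single abundant markers in both directions. The markers' part in the matrix values was not tested.

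**Figure D4:**
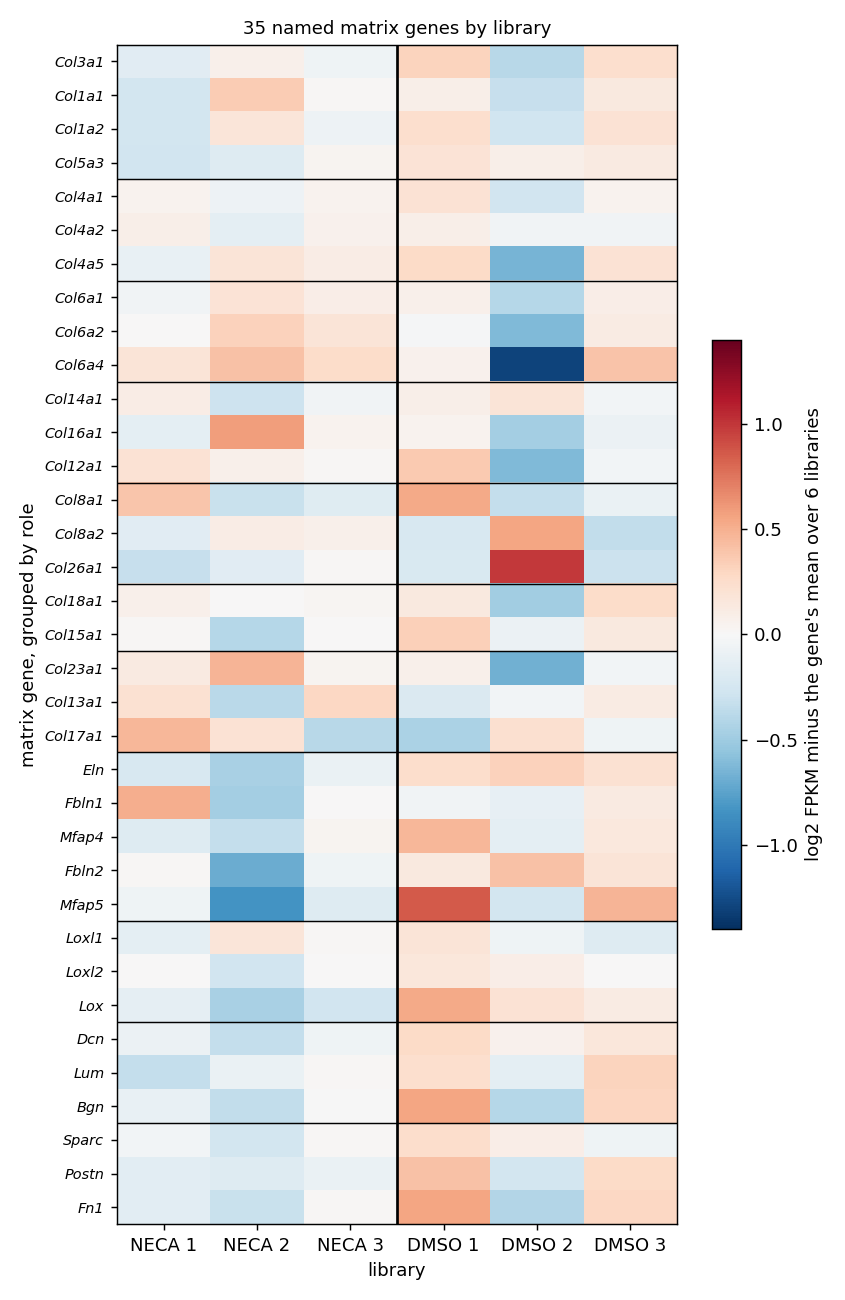
Log2 FPKM of 35 matrix genes minus each gene's mean over the 6 libraries, with NECA libraries left of the black line, DMSO libraries right of it, and thin lines between roles. DMSO replicate 2 is low across the type VI chains and lowest for Col6a4, while Eln, Lox and Dcn are low in all NECA libraries and high in all DMSO libraries.

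Leaving out both libraries numbered 2, a choice made after seeing the data, left 2 libraries a group, and 11 of 61 matrix genes then had an unadjusted edgeR p under 0.05 (18.0%), beside 7.44% of all genes. All 11 were lower in NECA, beside 4.45% of all genes: Mfap5, Postn, Bgn, Fn1, Lox, Eln, Lum, Col1a2, Col3a1, Mfap4 and Dcn. None passed adjustment over all genes, where the smallest adjusted p of a matrix gene was 0.388. Without DMSO replicate 2 alone there were 8, beside 3.51% of all genes, and all 8 were lower in NECA, beside 2.04% of all genes. Without NECA replicate 2 alone there were 2, Eln and Lox, beside 5.49% of all genes and 3.16% lower in NECA. Without DMSO replicate 1 there were 0, beside 3.14% of all genes.

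Genes that modify, export and cut collagen were read from lists of their own. Of 25 collagen processing and secretion genes, 24 were tested with a median log2 fold change of -0.01, and 1 was higher and 1 lower at an unadjusted p under 0.05, near the 2.45% and 3.03% of all genes. P4ha3, a prolyl hydroxylase subunit, had 0.270, 0.252 and 0.274 FPKM in NECA replicates 1 to 3 against 0.458, 0.732 and 0.415 FPKM in DMSO replicates 1 to 3. Colgalt1, a collagen galactosyltransferase, had 24.3, 29.7 and 24.3 FPKM in NECA and 18.7, 12.5 and 22.7 FPKM in DMSO. Neither overlapped between groups, and their log2 fold changes were -1.02 (SE 0.36) and 0.52 (SE 0.23). Mia3, a cargo receptor for procollagen export, overlapped, at -0.19 (SE 0.13).

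Of 17 tested matrix breakdown genes and inhibitors, 2 had an unadjusted p under 0.05, both lower in NECA, beside 3.03% of all genes in that direction, and the median was -0.13. Mmp14, the membrane-bound collagenase, had 17.6, 16.0 and 19.1 FPKM in NECA replicates 1 to 3 against 23.5, 23.2 and 22.6 FPKM in DMSO replicates 1 to 3. The groups were well apart and the DMSO libraries close together (log2 fold change -0.41, SE 0.14, edgeR unadjusted p = 0.0166, adjusted p = 0.738). Mmp23 was at -0.65 (SE 0.23) with groups apart, and Timp3, a matrix-bound inhibitor of metalloproteinases, at 0.35 (SE 0.17) with overlap. Of 15 other basement membrane genes, Npnt, an integrin ligand, was the 1 with an unadjusted p under 0.05, at 20.3, 16.0 and 18.0 FPKM in NECA and 24.5, 23.7 and 20.3 FPKM in DMSO (log2 fold change -0.35, SE 0.15), while the list's median was -0.02. Of 16 TGF-beta pathway genes, which control much of matrix production, none had an unadjusted p under 0.05, the median was -0.17, and the smallest p belonged to Ltbp1 (-0.30, SE 0.14), Smad7 (-0.39, SE 0.18) and Tgfb3 (-0.40, SE 0.21).

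Markers of the cells that could make these transcripts held no gene past adjustment. The 14 fibroblast markers had a median log2 fold change of -0.04 and the 7 tested pericyte markers -0.12. The 12 smooth muscle markers had -0.51, with summed levels of 1042 to 1209 FPKM in NECA and 1013 to 2463 FPKM in DMSO. The 12 blood endothelial markers had -0.23, at 129 to 252 FPKM in NECA and 195 to 253 FPKM in DMSO. All 12 epithelial markers were above 0, with a median of 0.28, at 4102 to 5718 FPKM in NECA and 3135 to 4251 FPKM in DMSO, so the defining markers of the labelled tissue were present in every library. The 7 mesothelial markers had -0.49, with summed levels of 38.5, 60.3 and 43.4 FPKM in NECA replicates 1 to 3. In DMSO replicates 1 to 3 the sums were 33.9, 92.9 and 31.0 FPKM. Only DMSO replicate 2 lay above the NECA libraries, and DMSO replicates 1 and 3 lay below them. Enteric glia had -0.36 over 7 tested markers, at 33.2 to 57.6 FPKM in NECA and 45.7 to 68.6 FPKM in DMSO. The adipocyte list had -0.27 over 4 tested of 9, which were Cidec, Lpl, Fabp4 and Pparg. Of its other genes, Adipoq, Lep and Retn had 0 counts in every library. Plin1 had at most 5 counts in a library and Cfd at most 1, so the list's median does not describe adipocytes. The part of cell composition or bowel position in the matrix values was not tested.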

How the data were processed

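For each library the authors deposited whole-number counts per gene, not normalized, and FPKM values, per the file headers. Per the submitters' processing notes, HISAT, StringTie and edgeR and the builds mm10 and GRCm38 were used. Versions, the counting strand and the handling of multiply matched reads are not stated there, and 20 matrix genes share exonic bases with another gene. The deposited FPKM equalled the counts times 1 value per gene and 1 factor per library (largest relative deviation 1.1e-08). Per the labels' protocols, libraries were made with SMARTer complementary DNA amplification.

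Genes were filtered with filterByExpr (minimum count 10, minimum total 15), scaled by TMM and tested with edgeR 4.0.16 (glmQLFit and glmQLFTest, two-sided) in R 4.3.3, NECA against DMSO with no covariate, over 15847 genes. P-values were Benjamini-Hochberg adjusted over all genes, with a threshold of 0.05. SE was the log2 fold change over the root of F. Alternatives used DESeq2 1.42.0, limma 3.58.1 on log2(FPKM + 1), other filters and scaling, a replicate block, sex from Xist, no mitochondrial genes, and each library left out. The scripts were tested on simulated data. No 2 libraries of a group agreed within counting noise (lowest chi-square per degree of freedom 18.6), so none was treated as 1 library deposited again. This does not show separate animals.

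Genes named with values in every library were the 3 with the highest mean FPKM in each role, those with an unadjusted p under 0.05, and those of at least 10 CPM with groups apart. Col24a1 and Col6a5 were added after their values were seen. For other lists, up to 3 genes with the smallest p were named. The members and lists were chosen with earlier results of these data known. Gene positions are from GENCODE M21, in which 99.77% of the identifiers were found, and promoter windows from RefSeq.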

Additional observations from a re-analysis of the deposited data

How the results depend on the processing

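No matrix gene passed adjustment under any of the 15 other settings. Over all genes, the edgeR fit with no filter called 2 and DESeq2 called 9. The count of matrix genes at an unadjusted p under 0.05, 4 in the fit reported, was 2 with DESeq2 size factors (5.66% of all genes), 2 with limma (5.55%), 11 without both libraries numbered 2 (7.44%), and 0 to 8 with 1 library left out (3.14% to 7.43%). The causes were not tested.

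Libraries with the same replicate number showed no common deviation: deviations from the group means correlated at 0.0378, -0.19 and -0.0481 for numbers 1 to 3. Each value rests on 1 pair of libraries, so it cannot exclude that the numbers pair them. With the replicate block, 3 of 61 matrix genes had an unadjusted p under 0.05, beside 3.96% of all genes, and 0 of all genes passed adjustment.

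Of 35 named genes, 20 kept the sign of their log2 fold change under every setting run and 15 did not. Without both libraries numbered 2, the values that turned were -0.079 for Col12a1, -0.041 for Col16a1, -0.168 for Col18a1, -0.243 for Col1a1, 0.102 for Col26a1, 0.039 for Col4a2, -0.241 for Col4a5, -0.074 for Col6a1, -0.031 for Col6a4, 0.226 for Col8a2 and -0.079 for Loxl1. Col18a1 was at -0.004 with the filter of 5 CPM. Col4a1 was at 0.003 with DESeq2 and 0.014 with limma. Col4a2 was at 0.004 with DESeq2 size factors, 0.01 with DESeq2 and 0.008 with limma. With 1 library left out, the turning genes ran from -0.087 to 0.375 for Col12a1, -0.037 to 0.269 for Col13a1, -0.176 to 0.156 for Col18a1, -0.116 to 0.205 for Col1a1, -0.668 to 0.099 for Col26a1, -0.124 to 0.084 for Col4a1, -0.035 to 0.056 for Col4a2, -0.174 to 0.202 for Col4a5, -0.013 to 0.21 for Col6a1, -0.328 to 0.185 for Col8a1, -0.218 to 0.283 for Col8a2, -0.216 to 0.263 for Fbln1 and -0.062 to 0.116 for Loxl1.

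With 3 libraries a group and a common biological coefficient of variation of 0.276 (0.213 without NECA replicate 2), differences of the size seen here were not separated from library spread. Col10a1, Col19a1 and Col2a1 were tested only with no filter and with DESeq2, where none passed adjustment.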
